A study of Mus musculus with 20 samples.

Results

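The 10 arrays described here measured the response to dexamethasone (Dex) in the spinal cord of Cx30GRko mice. They were the 5 arrays titled Tg DEX and the 5 titled Tg SAL, out of 20 in the series, and Tg was read as Cx30GRko because the design names no other line. In Cx30GRko mice Cre recombination under connexin 30, a gap junction protein of astrocytes, deletes the gene of the glucocorticoid receptor, which stays in the cells where Cre does not act. The labels give C57BL/6J mice of 6 to 10 weeks for all groups, and the design gives 5 mice per group. The animals received 1 intraperitoneal injection of Dex at 4 mg/kg or of saline, and the cord was taken 4 h later. The other 10 arrays came from control mice (titled wt) given the same injections. Spinal cord was used because recombination was most efficient there, but the share of cells that lost the receptor is not given. The values measure whole tissue, so fewer cells of a type and less RNA per cell cannot be told apart.

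The glucocorticoid receptor (Nr3c1) is a transcription factor that rests in the cytoplasm with chaperones, enters the nucleus when it binds a steroid, and raises or lowers the transcription of genes near its binding sites. It often binds as a dimer to a short inverted repeat, the glucocorticoid response element. Its known targets include transcription factors, kinases, brakes on growth and on inflammation, and enzymes of fat and sugar metabolism, and they respond in glia, endothelium and neurons alike.

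All values are log2 signals of probe sets, with 1 probe set for each of 22180 genes, and effects are Dex minus saline on the log2 scale, on which Cdkn1a, for example, has 1.88, or 3.67-fold. Replicates 1 to 3 of the 4 groups (12 arrays) and replicates 4 and 5 (8 arrays) form separate array sets, because the deposited values had been centred within each. The fit to all 20 arrays therefore carried the array set as a block, and each effect is also given within each set and without Dex replicates 4 and 5. Those last arrays stood apart: their SDs over all probe sets were 1.95 and 1.81, against 1.66 to 1.71 in the other 6 arrays of their set. Genes also scattered more in the second set, where the median residual SD was 0.37, against 0.21 in the first. Defining markers of the tissue were present, with 24 of 25 astrocyte genes, 13 of 13 oligodendrocyte genes and 18 of 19 neuronal genes above the median signal of the arrays, against 0 of 12 lymphocyte and 0 of 2 erythrocyte genes.

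The targeted gene did not tell the genotypes apart in these values. Nr3c1 read 6.49, 6.34, 6.01, 6.05 and 6.07 on the Cx30GRko saline arrays 1 to 5 and 6.29, 6.08, 6.17, 7.79 and 6.62 on the Dex arrays. The mean after saline was 6.19 ± 0.21 (SD, n = 5), against 6.21 ± 0.5 in control mice given saline, and which part of the gene the probe set covers, relative to the part removed, was not analysed here, so the value does not check the labels. After Dex the groups overlapped in replicates 1 to 3 but not in replicates 4 and 5, and the effect of 0.39 ± 0.27 (limma adjusted p 0.657) was -0.15 without Dex 4 and 5.

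The genes that make the response easiest to read are the known receptor targets, and 45 of the 53 listed had a promoter in the RefSeq table of build GRCm38.p6 (250 bases before to 50 after each start). A relaxed form of the response element, GNACANNNTGTNC read on both strands, lay in the promoter of 5 of these 45 genes (Sgk1, Mt1, Txnip, Map3k6 and Fam107a). Over all promoters of that length it lay in 0.475% of 32851, and in 145 of 27025 genes. The full palindrome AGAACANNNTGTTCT, every match of which is also a match of the relaxed form, lay in 3 promoters of the table, of which 1 belongs to Sgk1. The 250 bases before the start are printed here for the 4 of the 5 genes that had an unadjusted p under 0.05, with the match in capitals. They are chr10:21993640-21993889 for Sgk1 (plus strand, 1 of 6 starts listed), chr8:94178839-94179088 for Mt1 (plus strand), chr3:96557707-96557956 for Txnip (plus strand) and chr4:133240568-133240817 for Map3k6 (plus strand). A match describes the letters and not a site of binding.
Sgk1: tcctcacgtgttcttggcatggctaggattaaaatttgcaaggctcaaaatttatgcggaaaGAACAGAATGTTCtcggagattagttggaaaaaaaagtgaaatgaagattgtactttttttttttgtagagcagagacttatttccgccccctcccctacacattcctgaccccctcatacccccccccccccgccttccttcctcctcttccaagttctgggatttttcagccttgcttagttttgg
Mt1: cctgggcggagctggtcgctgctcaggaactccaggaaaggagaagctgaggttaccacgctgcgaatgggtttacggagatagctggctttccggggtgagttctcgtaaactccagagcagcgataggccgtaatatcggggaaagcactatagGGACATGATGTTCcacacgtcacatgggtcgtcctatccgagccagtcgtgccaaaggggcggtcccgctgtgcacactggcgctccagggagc
Txnip: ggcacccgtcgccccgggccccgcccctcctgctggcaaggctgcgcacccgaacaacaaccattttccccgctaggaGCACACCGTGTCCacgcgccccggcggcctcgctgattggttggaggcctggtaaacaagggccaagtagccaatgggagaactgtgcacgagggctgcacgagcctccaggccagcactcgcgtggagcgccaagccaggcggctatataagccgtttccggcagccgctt
Map3k6: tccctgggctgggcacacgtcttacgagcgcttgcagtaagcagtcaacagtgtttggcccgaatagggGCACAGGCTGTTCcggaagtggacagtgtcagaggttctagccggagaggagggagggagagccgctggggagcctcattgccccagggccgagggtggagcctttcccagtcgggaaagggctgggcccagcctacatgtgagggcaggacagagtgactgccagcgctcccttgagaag

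Dex raised 2 genes in the Cx30GRko cord, the cell cycle inhibitor Cdkn1a and the mitochondrial aspartate-glutamate carrier Slc25a13, and no gene passed the threshold downward. These 2 were 0.00902% of the genes tested (limma, Benjamini-Hochberg adjusted p under 0.05). At an unadjusted p under 0.05 there were 1885 genes (8.5%), of which 1111 were higher after Dex (5.01%) and 774 lower (3.49%). With 1 array left out the count was 0 without any 1 of saline 1, 2, 4 or 5 or Dex 1 or 5, 1 without saline 3 (Sgk1, with neither of the 2 called) or without Dex 2 (Cdkn1a), and 4 without Dex 4 or control saline 5. Neither was called when the fit used only the 10 Cx30GRko arrays (smallest adjusted limma p 0.0675) or kept all probe sets (smallest adjusted limma p 0.11). The labels do not say how the replicates were taken beyond 5 mice per group, and the p-values measure the spread between these arrays.

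Cdkn1a, which encodes p21 and halts the cell cycle, read 6.81, 6.65, 6.66, 6.03 and 6.76 in the saline arrays 1 to 5 and 8.2, 8.07, 8.13, 8.69 and 9.2 in the Dex arrays 1 to 5. Every Dex array lay above every saline array, and Dex 4 and 5 were the highest. The mean was 6.58 ± 0.31 (SD, n = 5) after saline and 8.46 ± 0.48 after Dex, an effect of 1.88 ± 0.28 (SE), or 3.67-fold, with a limma adjusted p of 0.0243. The effect was 1.43 ± 0.15 within replicates 1 to 3 and 2.55 ± 0.42 within replicates 4 and 5. Without Dex 4 and 5 it was 1.44 ± 0.29, with an unadjusted limma p of 8.6e-05 and an adjusted p of 0.441, so that its size stayed near that of replicates 1 to 3 while the call was lost.

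Slc25a13, which exports aspartate from mitochondria for the malate-aspartate shuttle, read 4.63, 4.89, 4.53, 4.67 and 4.66 in the saline arrays and 6.71, 6.18, 5.32, 6.22 and 6.57 in the Dex arrays. All Dex arrays were above all saline arrays, with Dex 3 the lowest of them. The means were 4.68 ± 0.13 and 6.2 ± 0.54 (SD, n = 5 each), an effect of 1.52 ± 0.24 (SE), or 2.87-fold, with an adjusted limma p of 0.0243. It was 1.39 within replicates 1 to 3, 1.73 within replicates 4 and 5, and 1.35 ± 0.28 without Dex 4 and 5 (limma adjusted p 0.476). Its effect differed less between the array sets than that of Cdkn1a.

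**Figure D1:**
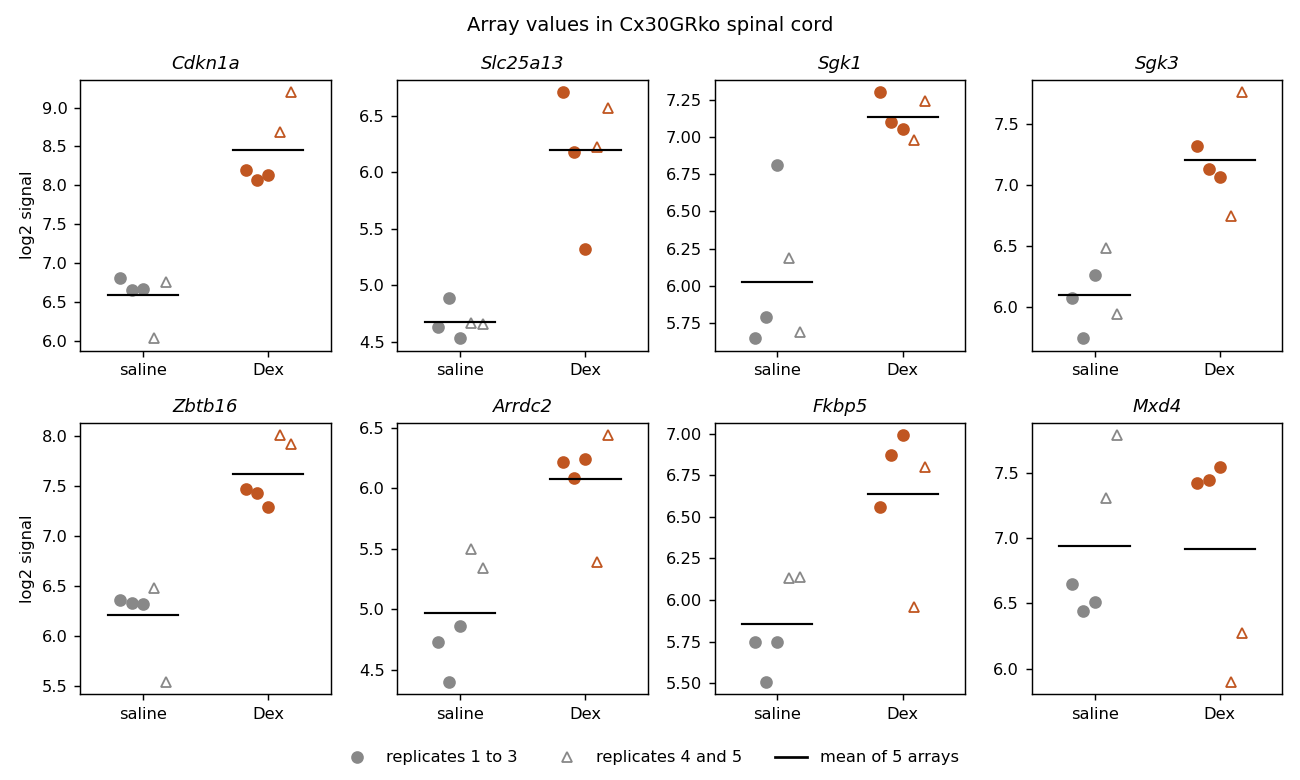
Log2 signal of 8 genes in the 5 saline and 5 Dex arrays of Cx30GRko cord, 1 point per array; filled circles are replicates 1 to 3, open triangles replicates 4 and 5, and lines the means of 5 arrays. Cdkn1a, Slc25a13, Sgk1, Sgk3 and Zbtb16 have every Dex array above every saline array, whereas Arrdc2 and Fkbp5 overlap through Dex 4, and in Mxd4 the array sets run opposite ways.

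The serum- and glucocorticoid-regulated kinases came next, with limma adjusted p of 0.0737 for both Sgk1 and Sgk3, short of the threshold. These values moved with the setting. After quantile normalization the limma adjusted p was 0.263 for Sgk1 and 0.225 for Sgk3, and with only the Cx30GRko arrays it was 0.653 for both. Both passed the threshold without the array set block, with dim genes left out, with array weights and with one weight per array set. Sgk1, an early target of the receptor that acts on ion channels and transporters, read 5.65, 5.79, 6.81, 6.19 and 5.69 after saline and 7.3, 7.1, 7.05, 6.98 and 7.24 after Dex. The Dex values lay within a narrow band above all saline values, the nearest of which was saline 3. Its effect was 1.11 ± 0.2 (SE), and 1.06, 1.17 and 1.13 in replicates 1 to 3, in replicates 4 and 5 and without Dex 4 and 5. Sgk3, a relative of Sgk1 that resides on endosomes, read 6.07, 5.74, 6.26, 6.48 and 5.94 after saline and 7.32, 7.13, 7.06, 6.74 and 7.76 after Dex. Its groups did not overlap, and its effect of 1.1 ± 0.19 was 1.06 ± 0.2 without Dex 4 and 5.

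Zbtb16, a zinc finger transcription factor induced by glucocorticoids in many tissues, read 6.36, 6.33, 6.32, 6.48 and 5.54 after saline and 7.47, 7.43, 7.29, 8.01 and 7.92 after Dex. Here too the groups were apart, and saline 5 and Dex 4 and 5 widened the gap. The effect of 1.42 ± 0.26 had a limma adjusted p of 0.101, and was 1.06 in replicates 1 to 3 and 1.12 without Dex 4 and 5. The metallothionein Mt2, which binds zinc and copper, read 7.63 to 8.41 (median 8.25) after saline and 8.69 to 9.41 (median 9.06) after Dex. Its effect was 0.85 ± 0.17 (limma adjusted p 0.173) and 0.66 without Dex 4 and 5. Il6ra, a receptor subunit for interleukin 6, read 5.07, 5.23, 4.96, 5.26 and 5.18 after saline and 5.77, 5.97, 6.12, 5.87 and 6.67 after Dex, an effect of 0.94 ± 0.19 (limma adjusted p 0.257).

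The 12 genes with the smallest p among those higher after Dex thus were Cdkn1a, Slc25a13, Sgk3, Sgk1, Zbtb16, Mt2, the arrestin family gene Arrdc2, Il6ra, the nucleotidase Nt5c3, the ribosome biogenesis gene Tma16, the oligodendrocyte transcription factor Olig1 and the glucose transporter Slc2a1. Their effects ran from 0.85 to 1.88. Without Dex 4 and 5, 12 of 12 kept their direction and 12 of 12 had an unadjusted p under 0.05. The 12 were picked for a small p in the main fit, which contains every array of this smaller fit. Those counts are therefore not separate support for them. In the smaller fit the effects ran from 0.44 (Olig1) to 1.44 (Cdkn1a). Slc2a1 went from 0.91 to 0.57 and Olig1 from 0.97 to 0.44, and both effects were larger in replicates 4 and 5 (1.49 and 1.69) than in replicates 1 to 3 (0.52 and 0.5). Tma16 and Arrdc2 went the other way, from 1.09 to 1.41 and from 1.11 to 1.25. The 2 probe sets of Slc2a1 differed, with 0.91 for the brighter one reported here and 0.12 for the dimmer one.

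None of the 12 genes with the smallest p among those lower after Dex passed the threshold, with limma adjusted p from 0.305 to 0.572. Speer2 read 3.86, 4.03, 3.59, 4.22 and 3.63 after saline and 2.89, 3.45, 2.94, 2.99 and 2.47 after Dex (effect -0.92 ± 0.2), and its groups did not overlap. Gbp11, a guanylate-binding protein gene, read 2.9 to 4.04 after saline and 2.29 to 2.57 after Dex (effect -0.9 ± 0.21), also without overlap. Of these 12, 8 lay in the 2 dimmest of 5 equal classes of genes by signal, against 0 of the 12 that were higher, of which 11 lay in the 2 brightest classes. In 7 of the 12, every Dex array lay below every saline array of its own set in both sets, which held for 0.879% of all genes. The 12 were picked for a small p on these same arrays, so that share is not separate support for them. The rest of the 12, beyond Speer2 and Gbp11, were the keratin gene Krt78 (-0.85), 1700018F24Rik (-0.81), BC048679 (-0.8), Rhox8 (-1.23), the ghrelin acyltransferase Mboat4 (-1.57), Psg20 (-0.85), Olfr873 (-0.54), Mir148a (-1.09), Gm19990 (-0.65) and the replication kinase subunit Dbf4 (-0.56). Without Dex 4 and 5 all 12 remained lower and 11 had an unadjusted p under 0.05, the exception being Mir148a (-0.54, unadjusted limma p 0.0625). The fit that picked the 12 contains every array of this smaller fit, so these counts are not separate support either. Mboat4 went from -1.57 to -0.55, since it read 2.2 and 2.61 on Dex 4 and 5 and 4.2 to 4.43 on Dex 1 to 3.

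Over all genes with an unadjusted p under 0.05, the loss of Dex 4 and 5 left the direction in place more often than the p. Of the 1111 that were higher, 993 stayed higher and 195 still had a p under 0.05, and their median effect went from 0.53 to 0.22. Of the 774 that were lower, 755 stayed lower and 112 had a p under 0.05, with medians of -0.56 and -0.29. The directions are not independent of each other, because the 2 fits share 18 of the 20 arrays. The genes were picked for a small p in the fit that holds Dex 4 and 5, and the smaller fit has fewer arrays. The drop in their counts and medians therefore does not measure Dex 4 and 5 alone. In the fit without Dex 4 and 5, 0 genes were called by limma (0%), 660 had an unadjusted p under 0.05, and the smallest adjusted p was 0.395, shared by Arrdc2, Sgk3 and Tma16. With saline 3 left out as well, 1 gene was called. Plin4, a coat protein of lipid droplets, was among the genes with the smallest p in that fit, with 1.21 (unadjusted limma p 9.95e-05) against 0.75 with all arrays, since Dex 4 read 5.05, the same as saline 4.

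Within replicates 1 to 3 alone, where the spread was smaller, limma called 7 genes (0.0316%), 6 higher and 1 lower. The count was 3, 2, 0 and 3 without saline 1, saline 2, Dex 1 and Dex 2. Arrdc2, an adaptor that sends membrane proteins to ubiquitin ligases, read 4.73, 4.4 and 4.86 after saline and 6.22, 6.09 and 6.24 after Dex, an effect of 1.52 ± 0.16 (adjusted limma p 0.00804). In replicates 4 and 5 it read 5.5 and 5.34 after saline and 5.39 and 6.44 after Dex, so the groups overlapped there. Ddit4, a stress-induced inhibitor of mTOR, rose by 1.38 ± 0.15 in replicates 1 to 3 (adjusted limma p 0.00928), from 4.07, 3.94 and 3.85 to 5.58, 5.18 and 5.26, against an effect of 0.23 in replicates 4 and 5.

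Setdb2, a histone methyltransferase gene, rose by 1.6 ± 0.21 in replicates 1 to 3 (adjusted limma p 0.0306), and the effect was 0.54 in replicates 4 and 5, where Dex 4 read 5.9 between the saline values of 6.27 and 5.78. Sgk3 (1.15, adjusted limma p 0.0202) and Cdkn1a (1.43, adjusted limma p 0.00804) rose there too. The Myc antagonist gene Mxd4 rose by 0.94 ± 0.13 (adjusted limma p 0.0306), from 6.65, 6.44 and 6.51 to 7.42, 7.45 and 7.55. In replicates 4 and 5 it read 7.31 and 7.79 after saline and 5.9 and 6.27 after Dex, an effect of -1.46, which left -0.02 over all arrays. Trim59, a ubiquitin ligase gene, fell by 1.27 on the log2 scale in replicates 1 to 3 (limma adjusted p 0.0202), from 6.86, 6.91 and 6.5 to 5.33, 5.44 and 5.67, while Dex 4 read 7.38. Replicates 4 and 5 alone gave 0 calls by limma and 2917 genes at an unadjusted p under 0.05.

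The difference of the Dex effect between the array sets was tested directly, and limma called 1000 genes (4.51%), 711 with a higher effect in replicates 4 and 5 (3.21%) and 289 with a lower one (1.3%). The test uses 1 variance per gene for both sets, although genes scattered more in the second, and with one weight per array set 704 were called. After a further quantile normalization of the deposited values 296 were called, 144 of them higher. Without any 1 of saline 1 to 3 or Dex 1 to 3 the count on the deposited values was 508 to 585, and without saline 5 or Dex 5 it was 1582 or 2376. The 5 genes with the smallest p were Olfr1386, Ndufc2, Olfr968, Mir2137 and Klhl24. Ndufc2, a subunit of respiratory complex I, read 6.65, 6.6 and 6.66 after saline and 6.65, 6.61 and 6.66 after Dex in replicates 1 to 3, and 6 and 6.04 after saline against 8.25 and 8.1 after Dex in replicates 4 and 5. Its effect was 0 in the first set and 2.16 in the second, and the difference of 2.15 had an adjusted limma p of 0.000156. Without Dex 4 and 5 its effect was 0.05.

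The shift in replicates 4 and 5 moved with the brightness of the gene. The median effect there was -0.02, -0.02, 0.03, 0.13 and 0.39 from the dimmest to the brightest of the 5 signal classes, and 70% of the brightest class were higher after Dex. In replicates 1 to 3 the medians lay between -0.01 and 0.01. Of the 711 genes with a higher effect in replicates 4 and 5, 488 belonged to the brightest class. That class lay 0.46 above its set mean on Dex 4 and 0.22 above on Dex 5 (medians), and from 0.17 below to 0.03 below on the other 6 arrays of the set. The set mean includes Dex 4 and 5, so their high values raise the level from which the other 6 are measured. The part of this shift in the effects of single bright genes was not tested.

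**Figure D2:**
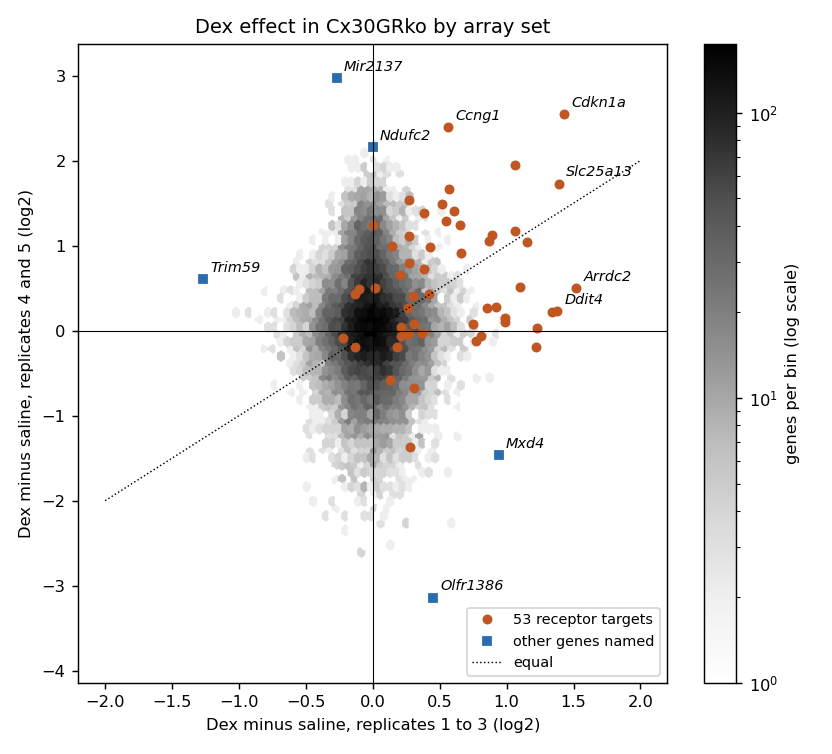
Dex effect of each of 22180 genes in replicates 1 to 3 (horizontal) against replicates 4 and 5 (vertical), as a density of genes on a log scale; orange points are the 53 receptor targets, blue squares other genes named, and the dotted line marks equal effects. Cdkn1a (1.43 and 2.55) and Slc25a13 (1.39 and 1.73) lie high on both axes, whereas Mir2137 (-0.27 and 2.97), Ndufc2 (0 and 2.16) and Olfr1386 (0.45 and -3.14) move in the second set.

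Known receptor targets were mostly higher after Dex. The list was drawn up with earlier results of these data known. It includes genes named above for their small p, such as Slc25a13, Arrdc2 and Sgk3. Its counts beside those of all genes therefore describe the list and do not test it. Of the 53, all measured, 48 were higher, against 53.7% of all genes, and 31 were higher at an unadjusted p under 0.05, against 5.01% of all genes tested, with 0 of them lower at that p. The adjusted threshold was passed by 2, Cdkn1a and Slc25a13. The median effect was 0.62, against 0.02 over all genes. It was 0.52 in replicates 1 to 3, 0.49 in replicates 4 and 5 and 0.54 without Dex 4 and 5. In replicates 1 to 3, 49 of 53 were higher (49.7% of all genes), in replicates 4 and 5, 41 of 53 (54.9%), and without Dex 4 and 5, 47 of 53 (49%). In 22 of the 53 every Dex array lay above every saline array of its own set in both sets, which held for 376 of all genes (1.7%). After quantile normalization or cyclic loess the median was 0.55 or 0.56, with 46 or 45 of 53 higher.

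Among the 10 transcription regulators 9 were higher and 6 had an unadjusted p under 0.05, with a median of 0.54 over all arrays and 0.32 without Dex 4 and 5. Per1, a clock repressor, read 7.25, 6.87, 7.21, 6.2 and 7.29 after saline and 7.42, 7.47, 7.73, 7.56 and 7.88 after Dex, so every Dex array was above every saline array, and saline 4 was the lowest of all. Its effect of 0.65 ± 0.2 had an adjusted limma p of 0.572. Tsc22d3, which encodes the anti-inflammatory protein GILZ, read 4.09 to 4.49 after saline and 4.59 to 4.84 after Dex, a small effect of 0.43 ± 0.14 that was alike in both sets (0.42 and 0.43). Hif3a, an inhibitory member of the hypoxia-inducible factors, had 0.89, and the Krüppel-like factors Klf9 and Klf15 had 0.78 and 0.66. Without Dex 4 and 5 Klf9 had 0.3, Hif3a had 1 and Klf15 had 0.64. Nfil3, a repressor of clock-controlled genes, had -0.15 over all arrays and 0.08 without Dex 4 and 5.

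All 6 kinases were higher, 3 at an unadjusted p under 0.05 (Sgk1, Sgk3 and Map3k6), with a median of 0.9 in replicates 1 to 3 and 0.07 in replicates 4 and 5. Map3k6, a stress kinase gene whose promoter is printed above, had 0.63, and 0.82 without Dex 4 and 5.

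The 8 brakes on growth and mTOR were all higher on the deposited scale and 7 of 8 after either renormalization, 6 at an unadjusted p under 0.05, with a median of 0.93 over all arrays and 0.53 without Dex 4 and 5. Errfi1, which restrains signalling of ErbB receptors, read 7.18, 7.07, 7.07, 7.19 and 6.8 after saline and 7.8, 7.7, 7.66, 8.24 and 8.55 after Dex. The groups were well apart in both sets, and the effect was 0.93 ± 0.21 (adjusted limma p 0.411) over all arrays and 0.57 without Dex 4 and 5. The p53-linked genes Ccng1 (cyclin G1) and Sesn1 (sestrin 1) had 1.29 and 1.01 over all arrays and 0.52 and 0.54 without Dex 4 and 5. Ccng1 read 8.89 and 9.77 on those 2 arrays against 7.51 to 8.32 on Dex 1 to 3, and its effect differed between the sets by 1.83 (adjusted limma p 0.0241). Ddit4 had 0.92 over all arrays and 1.16 without Dex 4 and 5, and Cables1, a regulator of cyclin-dependent kinases, had 0.48 and 0.25.

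All 11 metabolic targets were higher, 6 at an unadjusted p under 0.05, with 10 of 11 higher after cyclic loess and 9 without Dex 4 and 5. Pnpla2, the triglyceride lipase ATGL, read 5.69, 5.53, 5.76, 5.84 and 6.11 after saline and 6.85, 6.41, 6.28, 6.21 and 6.26 after Dex. Its groups did not overlap, most clearly in replicates 1 to 3, and its effect was 0.62 ± 0.15, and 0.76 without Dex 4 and 5 (unadjusted limma p 0.000209). The cholesterol exporter Abca1 had 0.61 and 0.33, and the phosphatidate phosphatase Lpin1 had 0.5 and 0.2. Lpin1 had no effect in replicates 1 to 3 (0) and 1.24 in replicates 4 and 5.

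Of the 8 metal, arrestin and transport genes 7 were higher (6 after either renormalization) and 6 had an unadjusted p under 0.05, with a median of 0.77. Mt1 read 7.64, 7.31, 7.57, 7.46 and 7.17 after saline and 7.86, 7.8, 7.99, 8.27 and 7.81 after Dex, above all saline arrays, with an effect of 0.52 ± 0.14 and 0.43 without Dex 4 and 5. Txnip, an arrestin that limits glucose uptake, read 6.63, 6.46, 6.06, 6.23 and 6.6 after saline and 6.65, 7.01, 7.46, 7.6 and 7.04 after Dex, an effect of 0.76 ± 0.26. Dex 1 and saline 1 nearly met, and the other Dex arrays were clear of the saline arrays. Arrdc3 had 0.78 over all arrays and 0.19 without Dex 4 and 5, and its effect differed between the sets by 1.27 (adjusted limma p 0.017). The zinc importer Slc39a14 had -0.08 and 0.3.

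Among the 10 targets listed as brakes on inflammation, 7 were higher, 4 at an unadjusted p under 0.05, with a median of 0.35. The 4 were Nfkbia, Zfp36 and the interleukin receptor genes Il6ra and Il1r1, which are not themselves brakes. Nfkbia, the inhibitor that holds NF-kB in the cytoplasm, read 5.68, 5.76, 6.12, 4.92 and 6.72 after saline and 6.48, 6.44, 6.58, 6.65 and 7.47 after Dex. Its effect was 0.88 ± 0.26, with overlap in replicates 4 and 5. Zfp36, which destabilises cytokine messages, read 2.64 to 3.5 after saline and 3.81 to 4.26 after Dex, an effect of 0.86 that was 0.88 without Dex 4 and 5. The interleukin 1 receptor Il1r1 had 0.65 and 0.87, and the phosphatase Dusp1 had 0.49 and 0.45. Lower, with unadjusted limma p from 0.17 to 0.287, were the deubiquitinase Tnfaip3 (-0.16), the decoy receptor Il1r2 (-0.17) and Irak3 (-0.38), a brake on Toll-like receptor signalling.

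**Figure D3:**
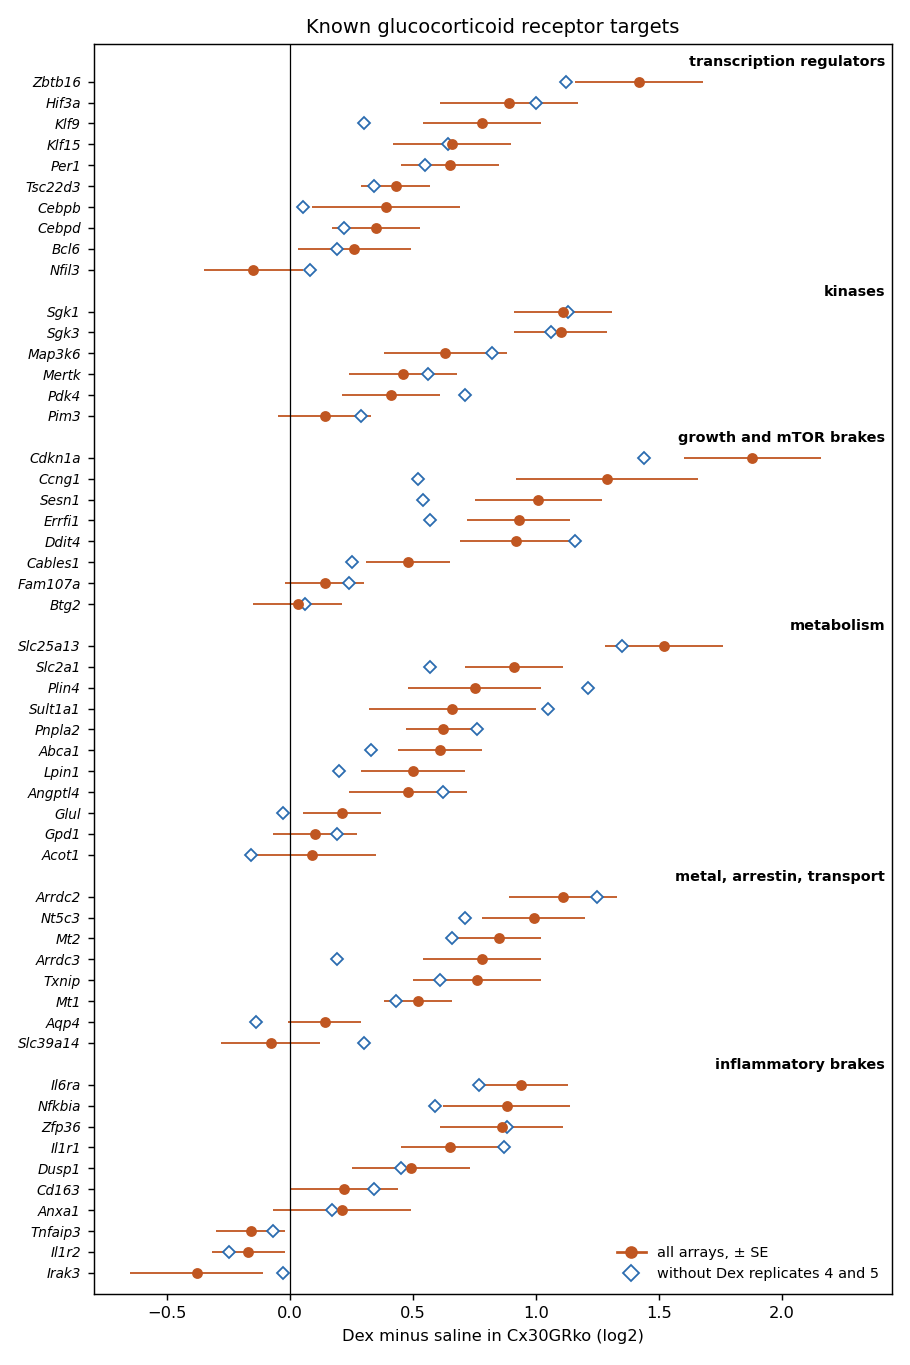
Dex minus saline in Cx30GRko (log2) for 53 known receptor targets in 6 groups; filled circles with bars are the effect over all arrays ± SE, and open diamonds the effect without Dex replicates 4 and 5. 48 of the 53 circles and 47 of the 53 diamonds lie above 0, and the diamonds of Ccng1 (0.52) and Arrdc3 (0.19) lie far to the left of their circles (1.29 and 0.78).

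Fkbp5, a co-chaperone that is induced by the receptor and lowers its affinity for steroid, read 5.75, 5.51, 5.75, 6.13 and 6.14 after saline and 6.56, 6.87, 6.99, 5.96 and 6.8 after Dex. It was clearly higher in replicates 1 to 3 (1.13 ± 0.17, adjusted limma p 0.0561), but Dex 4 lay below both saline arrays of its set, and the effect over all arrays was 0.78 ± 0.26. Gjb6, which encodes connexin 30, had 0.08 ± 0.19.

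Astrocyte markers were higher after Dex on the arrays of replicates 4 and 5. Of 25 markers 23 were higher over all arrays, with a median of 0.3, 4 at an unadjusted p under 0.05, against 53.7% of all genes higher and 5.01% higher at that p. After quantile normalization or cyclic loess 18 or 19 of 25 were higher over all arrays, and 16 or 17 in replicates 4 and 5. The median was 0.04 in replicates 1 to 3, 0.64 in replicates 4 and 5 and 0 without Dex 4 and 5. Their summed level, as the mean log2 signal of the 25, was 7.28 to 7.48 on the saline arrays and 7.51, 7.45, 7.57, 8.15 and 7.84 on Dex 1 to 5. Of the 25, 20 belong to the brightest signal class, whose median effect was 0.39 in replicates 4 and 5, and renormalization took the median in replicates 4 and 5 to 0.27 (quantile) or 0.24 (cyclic loess). Mlc1, a membrane protein of astrocyte endfeet, read 7.42, 7.49 and 7.75 on Dex 1 to 3 and 8.7 and 8.9 on Dex 4 and 5, against 6.88 to 7.63 after saline. The bicarbonate transporter Slc4a4 had 0 in replicates 1 to 3 and 1.33 in replicates 4 and 5. Mlc1 and Slc4a4 were named for their small p and lie above the list's median in replicates 4 and 5. Gjb6, also one of the 25, had 0.13 and 0.01. The potassium channel Kcnj10, which is not in this list but in that of glutamate, potassium and water handling, had 0.03 and 1.34.

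In many other lists, too, the median was higher in replicates 4 and 5 than in replicates 1 to 3, and 5 of them come first here. The median of the 15 genes of glutamate, potassium and water handling was 0.24 over all arrays, 0.02 in replicates 1 to 3, 0.81 in replicates 4 and 5 and 0.04 without Dex 4 and 5. The 16 genes of cholesterol synthesis had 0.34, 0.01, 0.83 and 0.01, the 24 genes of glucose, glycogen and lactate 0.27, 0.05, 0.58 and 0.01, and the 13 oligodendrocyte markers 0.19, 0.03, 0.5 and -0.15 in the same order. The 19 neuronal markers had 0.17, -0.09, 0.43 and -0.1. In these 5 lists the difference shrank on renormalization. By quantile normalization and cyclic loess the median in replicates 4 and 5 was 0.35 and 0.42 for glutamate, potassium and water handling, 0.49 and 0.54 for cholesterol synthesis, 0.3 and 0.26 for glucose, glycogen and lactate, 0.16 and 0.32 for oligodendrocytes, and 0.21 and 0.08 for neurons. The oligodendrocyte median over all arrays turned to -0.04 after quantile normalization. The endothelial markers had 0.04 in replicates 1 to 3 and 0.46 in replicates 4 and 5. Their median in replicates 4 and 5 did not shrink, with 0.49 by quantile normalization and 0.48 by cyclic loess. Some lists went the other way, such as the mural markers, with 0.14 in replicates 1 to 3 and -0.17 in replicates 4 and 5. The cholesterol gene with the smallest p was Hsd17b7, with 0.56 over all arrays and 0.29 without Dex 4 and 5.

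**Figure D4:**
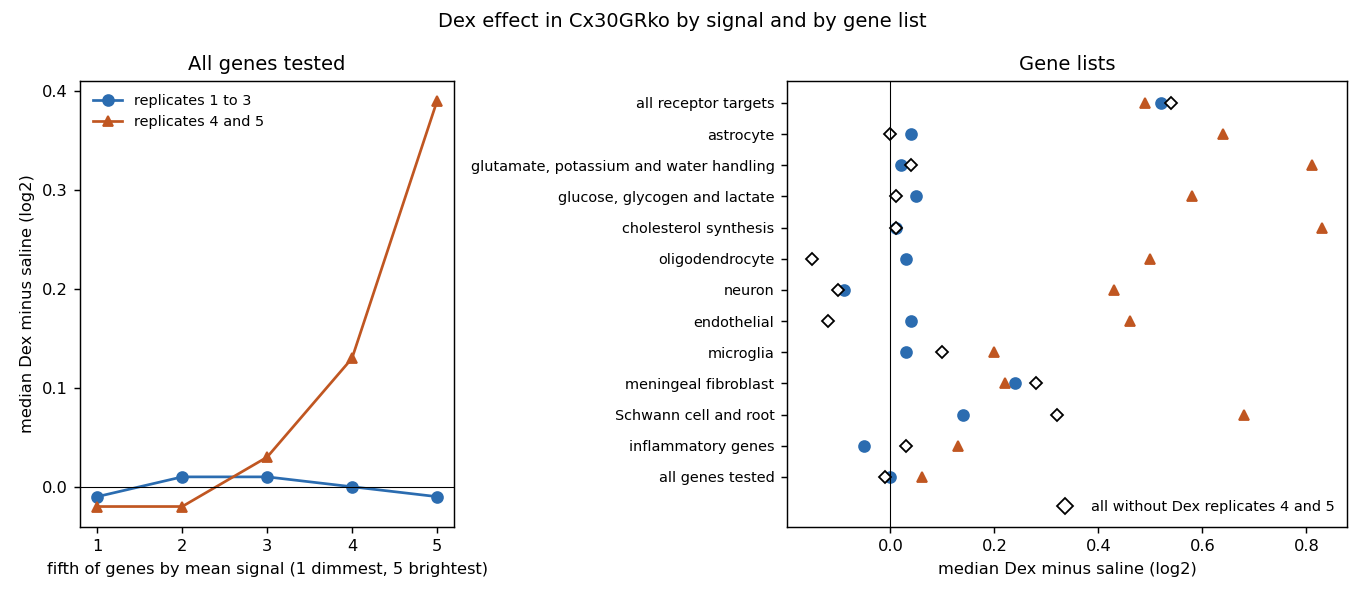
Left, median Dex effect (log2) of all genes in 5 groups by mean signal, for replicates 1 to 3 (circles) and replicates 4 and 5 (triangles). Right, median effect of gene lists in the same sets and over all arrays without Dex replicates 4 and 5 (diamonds); the receptor targets have 0.52 and 0.49 in the sets, whereas astrocyte markers have 0.04 and 0.64.

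Dex lowers inflammatory genes in many settings, and in this unchallenged cord no such genes were lower beyond the spread. Of 19 inflammatory genes 10 were higher and 9 lower, with 0 at an unadjusted p under 0.05 in either direction and a median of 0.01. Of 18 immediate early genes 9 were higher and 9 lower, 1 each at an unadjusted p under 0.05, and the lower one was Jund, an AP-1 subunit (-0.52 over all arrays and -0.24 without Dex 4 and 5). Its 2 probe sets differed, with 0.02 for the dimmer one. Among 12 genes of protein breakdown and FoxO, 8 were higher, 2 of them at an unadjusted p under 0.05, and the one lower at that p was Fbxo32 (atrogin-1), a ubiquitin ligase of muscle wasting. It read 6.63, 6.29, 6.45, 6.36 and 6.41 after saline and 5.97, 5.89, 5.86, 6.31 and 5.86 after Dex, all below the saline arrays of the same set, an effect of -0.45 ± 0.18 and -0.55 without Dex 4 and 5. Of 12 genes of angiogenic receptors and their ligands 8 were higher and 0 had an unadjusted p under 0.05, and the apelin receptor Aplnr had -0.28.

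In control mice, whose astrocytes keep the receptor, the same contrast served to test whether the effect differed. The difference of the Dex effects (Cx30GRko minus control) gave 0 calls by limma (0%), with 1090 genes at an unadjusted p under 0.05 (4.91%) and a smallest adjusted p of 0.923. For Cdkn1a the effect was 1.72 in control mice, and the difference was 0.16 ± 0.39. For Slc25a13 it was 1.22, with a difference of 0.3 ± 0.33, and for Sgk3 it was 1.33, with a difference of -0.23 ± 0.28. The 53 receptor targets had a median of 0.62 in Cx30GRko and 0.44 in control mice, and 46 were higher in control mice (52.3% of all genes). Taken gene by gene, the median of their differences was 0.08. The Cx30GRko median was 0.54 without Dex 4 and 5, and after quantile normalization the medians were 0.55 in Cx30GRko and 0.42 in control mice. A p that misses the threshold does not show that the genotypes responded alike and the median SE of the difference was 0.29.

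**Figure D5:**
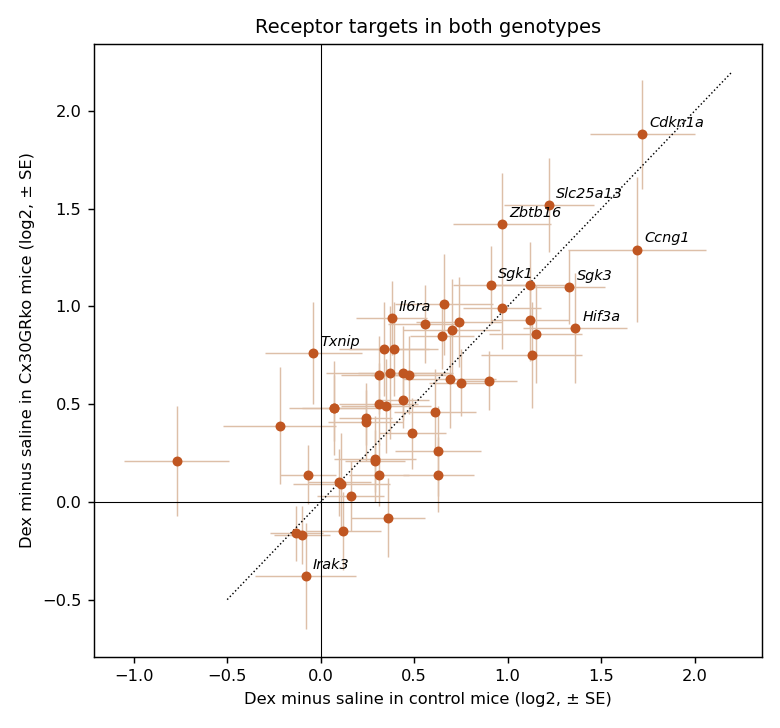
Dex effect (log2) of 53 receptor targets in control mice (horizontal) and Cx30GRko mice (vertical), each with its SE; the dotted line marks equal effects. Cdkn1a (1.72 and 1.88) and Slc25a13 (1.22 and 1.52) are among the highest in both genotypes. For Txnip (-0.04 and 0.76) and Il6ra (0.38 and 0.94) the Cx30GRko value is the higher. For Hif3a (1.36 and 0.89) and Ccng1 (1.69 and 1.29) the control value is. Of the 53 differences, 2 had an unadjusted limma p under 0.05, against 4.91% of all genes, and none passed the adjusted threshold.

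The 5 genes with the smallest p for that difference were 1700018F24Rik, Mup3, Tmem189, Mmp7 and Olfr372, none past the threshold (limma adjusted p 0.923 to 0.924). Tmem189, which encodes the desaturase that makes plasmalogens, read 4.62, 4.48, 4.62, 4.09 and 5 after saline and 6.06, 5.48, 4.96, 5.98 and 4.89 after Dex, an effect of 0.91, against -0.8 in control mice. Its Cx30GRko groups overlapped in replicates 4 and 5. The 2 probe sets of Mmp7 had 0.52 and -0.4 in Cx30GRko mice, so no direction is given for that gene.

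Markers of meningeal fibroblasts were the list whose effects in the genotypes lay farthest apart with more than 10 members. In Cx30GRko mice 12 of 14 were higher, with a median of 0.34, and in control mice 1 of 14 was higher, with a median of -0.47. The mean log2 level of the 14 was 6.01, 5.92, 5.15, 5.54 and 5.73 on the saline arrays and 5.19, 6.14, 6.62, 6.46 and 5.89 on the Dex arrays, so the groups overlapped and single arrays ranged over more than 1 log2 unit. The 7 Schwann cell and root markers, which likewise belong to tissue around the cord, had medians of 0.44 and -0.49 and ran from 5.29 to 6.35 on the saline arrays and from 5.2 to 6.78 on the Dex arrays. The difference between the genotypes was not tested for these lists, and their part in the effects of other genes was not tested.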

How the data were processed

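Spinal cord RNA was labelled with a whole-transcript kit for Affymetrix arrays, 1 array per sample. The authors deposited log2 values of probe sets. Per the submitters' processing notes the tool was oligo, and its version, the normalization and the build are not given in the sources used here. Means of the deposited values over the 12 and the 8 arrays agreed for every probe set within 4.5e-09. Of 41345 probe sets, 23521 had 1 gene symbol, 1814 several and 16010 none, and 1082 of the 22180 genes had more than 1, of which the one with the highest mean was used. No dim genes were left out. Effects were fitted with limma 3.58.1 in R 4.3.3 (15 residual degrees of freedom) to all 20 arrays with the array set as block, two-sided, with Benjamini-Hochberg adjustment over all genes, and called at 0.05. The fit without Dex replicates 4 and 5 used 18 arrays. The code was tested on simulated data.

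The genes, the 32 lists (439 members, 406 measured) and the tests were chosen with earlier results of these data known. Genes named are those called, the 12 with the smallest p in each direction, those called within replicates 1 to 3, 5 each for the differences between sets and genotypes, up to 4 per list, receptor targets, Nr3c1 and Gjb6. Plin4 was among the smallest p without Dex 4 and 5, and Fam107a is a target. Lists were described by counts and medians, with no test of their own. Precision is limited by the number of arrays. Alternatives were other blocks, scalings, weights, filters and arrays left out.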

Additional observations from a re-analysis of the deposited data

Results flagged for a closer look

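In the named genes, 10 of 148 groups of 5 arrays held a value far from the other 4 (a gap of over 0.71 of the range). Chance flags about 1 in 20 groups if all values have the same spread. On the saline arrays the low values were Cdkn1a on replicate 4 (6.03, others 6.65 to 6.81), Ccng1 on replicate 4 (6.51), Zbtb16 on replicate 5 (5.54, others 6.32 to 6.48), Sesn1 on replicate 5 (4.99) and Olfr372 on replicate 5 (2.28). On the Dex arrays the high values were Trim59 (7.38, others 5.33 to 5.67), Lpin1 (7.57) and Fbxo32 (6.31) on replicate 4, and Cables1 (5.52) and Nfkbia (7.47) on replicate 5. All 10 lay on arrays of replicates 4 and 5. Each group pools both array sets, and genes scattered more in the second (median residual SD 0.37 against 0.21). The named genes were also picked on these data. The count and the place of these values are therefore a description and not a test.

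The Dex effect differed between the array sets in 1000 genes (4.51%) by the limma test of the difference. That test uses 1 variance per gene for both sets. The count was 704 with one weight per array set and 296 after quantile normalization. Olfr1386, Ndufc2, Olfr968, Mir2137 and Klhl24 were named for their small p in this same test. Among named genes the effect in replicates 4 and 5 was higher by 3.24 for Mir2137, 2.15 for Ndufc2, 2.11 for Klhl24, 1.83 for Ccng1, 1.68 for Mlc1, 1.33 for Slc4a4, 1.31 for Kcnj10, 1.27 for Arrdc3 and 1.2 for Olig1 (adjusted limma p 0.000156 to 0.0241). It differed by -3.6 for Olfr1386, -2.93 for Olfr968, -2.81 for Mboat4, -2.41 for Mxd4, -1.87 for Mir148a, -1.73 for Rhox8, -1.65 for Irak3 and -1.15 for Ddit4 (adjusted limma p 2.72e-05 to 0.0382).

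Among the named genes, which include the 5 with the smallest p for the difference between genotypes, there were 3 in which every Cx30GRko Dex array moved one way from the saline mean of its genotype and set and every control Dex array the other way. The Cx30GRko effect minus the control effect was 2.41 for Mup3, 1.71 for Tmem189 and -1.4 for Olfr372, and the test of the difference missed the threshold (limma adjusted p 0.923 to 0.924).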

How the results depend on the processing

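The count of 2 called genes rested on the setting. It was 2 after quantile normalization or cyclic loess, 4 without the array set block, with dim genes left out or at an adjusted p under 0.10, 8 with one weight per array set and 17 with array weights, and 0 with only the Cx30GRko arrays, with all probe sets kept, at an adjusted p under 0.01, in replicates 4 and 5 only or without Dex 4 and 5. With 1 array left out at a time it ran from 0 to 4. It was 0 without any 1 of saline 1, 2, 4 or 5 or Dex 1 or 5, 1 without saline 3 (Sgk1) or Dex 2 (Cdkn1a), and 4 without Dex 4 or control saline 5. Same-numbered Cx30GRko saline and Dex arrays did not deviate together from their group means (correlations -0.0373 to -0.00744). That does not settle whether the replicates were taken in pairs, which the labels do not say. With the replicate block the count of called genes was 0 (smallest adjusted limma p 0.0527), 3 within replicates 1 to 3, and 0 for the difference between genotypes.

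The 7 calls within replicates 1 to 3 became 2 with all probe sets kept, 26 with dim genes left out, 18 at an adjusted p under 0.10, 0 with only the Cx30GRko arrays, and 0 to 8 with 1 array left out, with 0 lacking Dex 1. The 0 calls without Dex 4 and 5 became at most 1 (without saline 3). The 1000 differences between sets were 296 after quantile normalization, 1837 at an adjusted p under 0.10, 704 with one weight per array set, and 508 to 2376 with 1 array left out. The 571 genes without overlap in both sets were 948 with all probe sets kept and 378 with dim genes left out.

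Directions turned for a few named genes. Trim59 had 0.61 in replicates 4 and 5 only. Under array weights, one weight per array set, replicates 1 to 3 only and without Dex 4 and 5, Mxd4 had 0.67, 0.44, 0.94 and 0.72 and Slc39a14 had 0.19, 0.11, 0.31 and 0.3. With 1 array left out Mxd4 ranged from -0.19 to 0.26 and Slc39a14 from -0.23 to 0.1. Under array weights, replicates 1 to 3 only and without Dex 4 and 5, Olfr1386 had 0.04, 0.45 and 0.1, Nr3c1 had -0.05, -0.1 and -0.15, and Nfil3 had 0.04, 0.13 and 0.08. In replicates 1 to 3 only and without Dex 4 and 5, Mir2137 had -0.27 and -0.27 and Klhl24 -0.14 and -0.16, and Irak3 had 0.28 in replicates 1 to 3 only. Fam107a had -0.07 after quantile normalization, -0.03 after cyclic loess and -0.04 in replicates 4 and 5 only. The cause was not tested. Both weight settings gave Dex 4 and 5 less weight than replicates 1 to 3.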

Other observations

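Genes of lipid droplets and fatty acid oxidation were divided: 14 of 21 were higher after Dex, 7 at an unadjusted p under 0.05 (5.01% of all genes) and 0 lower at that p (3.49% of all genes), while the list's median was 0.09 over all arrays and -0.01 without Dex 4 and 5. Of the 7, Pnpla2 and Plin4 are also receptor targets and are counted there. Reactive astrocyte genes, which astrocytes express after injury, had 13 of 24 higher and a median of 0.06, with 18 of 24 higher in replicates 1 to 3 (median 0.2) and 11 of 24 in replicates 4 and 5 (median -0.02). Of 16 clock genes 11 were higher (9 after quantile normalization, 8 after cyclic loess), with a median of 0.06, and without Dex 4 and 5 it was 7 of 16, with a median of -0.01. Per1 was the 1 member with an unadjusted p under 0.05.

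Microglial markers had 9 of 14 higher (median 0.1), and markers of neutrophils and monocytes 7 of 16 (median -0.06), of lymphocytes 5 of 12 (median -0.08) and of skeletal muscle 6 of 12 (median 0). Markers of vessels were 12 of 19 endothelial genes higher (median 0.14, and -0.12 without Dex 4 and 5) and 6 of 14 mural genes higher (median -0.09). Of the endothelial list, Slc2a1 is also a receptor target.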
